A study of Mus musculus with 10 samples.

Results

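The genes described here encode 6 enzymes of cholesterol synthesis, Hmgcs1, Mvd, Fdps, Fdft1, Sqle and Cyp51, and the transcription factor SREBP-2 (Srebf2). They were followed through every array probe set that maps to 1 of these 7 symbols and to no other gene, which gave 19 probe sets for 7 of the 18193 genes that have a probe set of their own. None of the 7 encodes a receptor for cholesterol uptake. Expression was measured in gastrocnemius muscle of 13-month-old male mice, with 1 Affymetrix Mouse Genome 430 2.0 array per mouse. The D257A group held 5 mice homozygous for a knock-in of Polg, the mitochondrial DNA polymerase γ, whose product lacks proofreading, and the WT group held 5 Polg+/+ mice. The mutation is present in every tissue, so a difference that arises in muscle cannot be told apart from one that follows from other organs, and the line had a mixed background that was backcrossed to C57Bl/6J.

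Cholesterol is built from acetyl-CoA in the cytosol and the endoplasmic reticulum. Hmgcs1 condenses acetyl-CoA units to HMG-CoA, Mvd forms isopentenyl pyrophosphate, Fdps joins such units to farnesyl pyrophosphate, and Fdft1 (squalene synthase) commits farnesyl pyrophosphate to sterols. Sqle then oxidises squalene, and Cyp51 removes a methyl group from lanosterol. When membrane sterol is low, SREBP-2 is cut free from the endoplasmic reticulum and switches these genes on together, at sterol regulatory elements that often lie near CCAAT boxes bound by NF-Y. Skeletal muscle makes sterols for its own membranes, and the same pathway supplies the isoprenoids of coenzyme Q and of prenylated proteins.

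RefSeq promoter windows of the GRCm38.p6 build, from 250 bases before to 50 bases after the transcription start, were at hand for 4 of the 7 genes (Srebf2, Hmgcs1, Mvd and Cyp51). They were searched on both strands for TCACNCCAC, a form of the sterol regulatory element, which 1.24% of all 32851 windows hold. Among the 4 genes it was found in the Hmgcs1 window alone, 137 bases before the start. CCAAT boxes, found in 37.4% of all windows, numbered 4 in Hmgcs1, 2 in Mvd and 1 each in Srebf2 and Cyp51. GGGCGG boxes, found in 35.7% of windows, numbered 5 in Srebf2, 3 in Hmgcs1 and 1 each in Mvd and Cyp51. The shorter TCACCCCA, which lies inside the Hmgcs1 match and was chosen after the windows were seen, also occurs 162 bases before the start of Srebf2 and in 1.56% of all windows. Both windows are shown because Hmgcs1 is the synthesis enzyme whose levels are described at the most probe sets and Srebf2 encodes the factor that reads such elements. Capitals mark TCACCCCAC or TCACCCCA and the CCAAT boxes, read as ATTGG on this strand. Such a match is a description of letters and does not show that a factor binds there.
Hmgcs1, chr13:119690101-119690400, plus strand: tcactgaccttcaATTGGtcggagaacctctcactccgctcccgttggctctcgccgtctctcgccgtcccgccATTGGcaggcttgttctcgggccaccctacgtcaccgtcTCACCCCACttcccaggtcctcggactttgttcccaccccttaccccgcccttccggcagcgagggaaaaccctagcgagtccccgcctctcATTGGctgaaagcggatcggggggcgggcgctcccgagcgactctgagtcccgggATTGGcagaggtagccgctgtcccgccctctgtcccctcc
Srebf2, chr15:82147019-82147318, plus strand: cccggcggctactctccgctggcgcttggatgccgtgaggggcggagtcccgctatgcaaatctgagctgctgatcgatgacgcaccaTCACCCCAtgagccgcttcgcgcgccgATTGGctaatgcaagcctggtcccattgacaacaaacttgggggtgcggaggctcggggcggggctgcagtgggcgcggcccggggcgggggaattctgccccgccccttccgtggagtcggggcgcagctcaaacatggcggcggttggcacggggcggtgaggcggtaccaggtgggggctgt

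The deposited signals were multiplied so that each array had a trimmed mean of 500, and all levels below are these scaled signals, which compare mice for 1 probe set but not 1 probe set with another. Differences are log2 fold changes of D257A over WT, each with its standard error from limma, and a probe set was called where the p-value adjusted over the 22518 probe sets tested was under 0.05. Each array's median probe set lay at 6.36 ± 0.06 log2 units in D257A mice and 6.49 ± 0.05 in WT mice (n = 5 each, SD), and the median log2 fold change of the probe sets tested was -0.03, or 0.10 if each array is instead centred on its median. Transcripts of skeletal muscle were bright in every mouse, with Ckm at 50800 to 57077 in D257A mice and 45382 to 61356 in WT mice, although 1 line of the extraction protocol names another tissue. WT mouse 1-13M stood apart: its array received a weight of 0.283 where the other arrays received 0.555 to 1.73, and without it 3428 probe sets were called, against 1662 with it. Values that this mouse moves are therefore given with and without it. With 5 mice a group, precision is limited by their number.

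Among the 7 genes, only Fdft1 passed the test. Of the 19 probe sets, 12 were bright enough to be tested, and of these 1 was called higher in D257A mice and 0 lower, where 7.38% of all probe sets tested were called, 3.64% higher and 3.74% lower. In 0 of the 12 did the genotypes fail to overlap, where 3.94% of all probe sets lay higher without overlap and 3.77% lower. Without the adjustment, 2 were higher, both of Fdft1, and 1 of Hmgcs1 was lower at a p under 0.05 in limma's test. The share of all probe sets at an unadjusted p was not computed, here or below, so such counts cannot be set against it. By the brightest probe set of each gene, Fdft1 was 1.53-fold higher in D257A mice while the other 6 genes had negative log2 fold changes of -0.46 to -0.10 that did not pass, where 3.71% of all genes tested were called higher and 3.52% lower. The median over the 7 genes was -0.25, beside -0.01 over all 11216 genes tested. Without WT mouse 1-13M, 5 of the 12 probe sets were called, 2 of Fdft1 higher and 3 of Hmgcs1 lower, where 15.2% of all probe sets were then called, 7.32% higher and 7.9% lower.

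**Figure D1:**
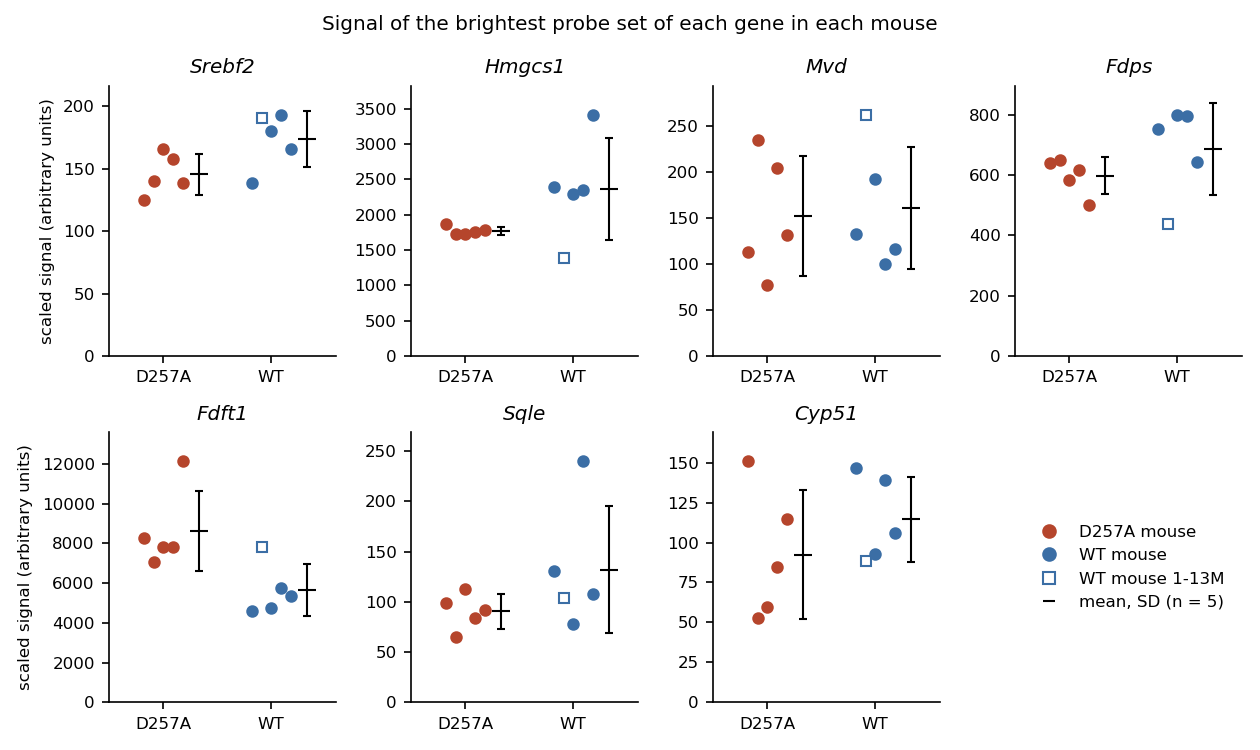
Scaled signal (linear axis from 0, arbitrary units) of the brightest probe set of each of the 7 genes in 5 D257A and 5 WT mice. Bars are means with SD, and an open square marks mouse 1-13M of the WT group. Fdft1 lies between 7070 and 12121 in D257A mice and between 4601 and 7811 in WT mice, and the highest WT value is that of mouse 1-13M.

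Fdft1, which joins 2 molecules of farnesyl pyrophosphate into squalene, was the member that rose. Its brightest probe set, 1438322_x_at, read 8249, 7070, 7837, 7827 and 12121 in D257A mice 2-17M, 2-21M, 2-25M, 2-27M and 2-30M, against 4601, 7811, 5742, 4724 and 5329 in WT mice 1-12M, 1-13M, 2-3M, 2-32M and 3-18M. All D257A mice lay above the WT mice except 1-13M, which lay within the D257A range. The means were 8621 ± 2002 in D257A mice and 5641 ± 1298 in WT mice (n = 5 each, SD), which is 0.61 on the log2 scale (standard error 0.16, adjusted p = 0.0368, 2-sided exact permutation p = 0.0159). The second tested probe set, 1448130_at, read 6204, 4982, 4867, 4945 and 6750 in the D257A mice, against 3150, 5869, 3993, 3321 and 2680 in the WT mice, in the same order of mice. It gave a change of nearly the same size that missed the threshold, 0.59 (standard error 0.18, adjusted p = 0.0677). Without WT mouse 1-13M no D257A value of either probe set lay within the WT range, and the differences were 0.74 at the first (adjusted p = 0.00263) and 0.76 at the second (adjusted p = 0.00175).
The Fdft1 call was close to the threshold. It held under 8 of 22 alternatives, and leaving out any 1 of 4 D257A mice (2-17M, 2-25M, 2-27M or 2-30M) or any 1 of 4 WT mice (1-12M, 2-3M, 2-32M or 3-18M) ended it, with adjusted p from 0.0558 to 0.0991. The log2 fold change stayed between 0.48 and 0.75 under the alternatives. Probe sets whose names end in x_at or s_at hold probes that can match other transcripts too. A further pair of Fdft1 probe sets was too dim to be tested and did not follow the bright ones. One of them, 1438918_at, read 8.5 to 39.7 in D257A mice and 66.1 to 123.1 in WT mice, without overlap and in the opposite direction (log2 fold change -2.20, adjusted p = 0.0314 when no filter on dim probe sets is used). The other, 1438919_x_at, read 10.1 to 73.4 in D257A mice and 8.5 to 104.0 in WT mice.

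**Figure D2:**
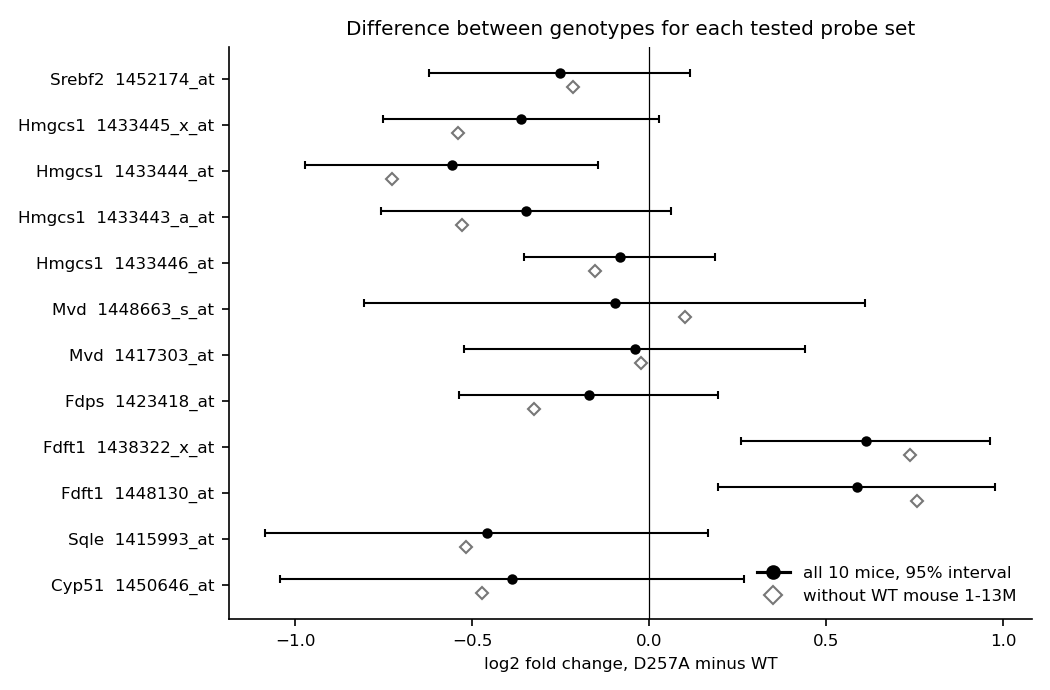
Log2 fold change (D257A minus WT) of the 12 tested probe sets, with limma's 95% interval over all 10 mice (filled circles) and the value without WT mouse 1-13M (open diamonds). Over all 10 mice, only the 2 Fdft1 probe sets lie to the right of 0, and 1 Hmgcs1 probe set, 1433444_at, has an interval that ends below 0.

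Hmgcs1, the cytosolic HMG-CoA synthase, had lower signals in D257A mice than in every WT mouse but 1-13M at its 3 brightest probe sets. Probe set 1433445_x_at read 1864, 1722, 1722, 1754 and 1788 in D257A mice 2-17M, 2-21M, 2-25M, 2-27M and 2-30M, against 2393, 1382, 2353, 2285 and 3410 in WT mice 1-12M, 1-13M, 2-3M, 2-32M and 3-18M. The D257A mice were close to each other, with an SD of 59.1 around a mean of 1770, while the WT mice had an SD of 719 around 2364 (n = 5 each). Mouse 1-13M was the lowest of the 10 and mouse 3-18M the highest. The log2 fold change, -0.36 with a standard error of 0.18, did not pass (adjusted p = 0.25). At 1433444_at the signals were 1579, 1419, 1604, 1442 and 1859 in the D257A mice, against 2503, 1443, 2127, 2381 and 3632 in the WT mice, and the log2 fold change was -0.56 (standard error 0.19, adjusted p = 0.0963). At 1433443_a_at it was -0.35 (adjusted p = 0.293), and at the dimmer 1433446_at, where the genotypes were closest, -0.08 (adjusted p = 0.74). Without WT mouse 1-13M these 4 values were -0.54 (adjusted p = 0.00848), -0.73 (adjusted p = 0.00422), -0.53 (adjusted p = 0.0162) and -0.15 (adjusted p = 0.413). Without WT mouse 3-18M, which had the highest signal, 1433445_x_at gave -0.21 (adjusted p = 0.423) and 1433444_at -0.39 (adjusted p = 0.152). In the same fit, 1433443_a_at gave -0.19 (adjusted p = 0.497) and 1433446_at -0.04 (adjusted p = 0.872), so none passed. The remaining probe set, 1441536_at, was too dim to be tested, at 10.2 to 33.7 in D257A mice and 2.1 to 35.3 in WT mice.

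**Figure D3:**
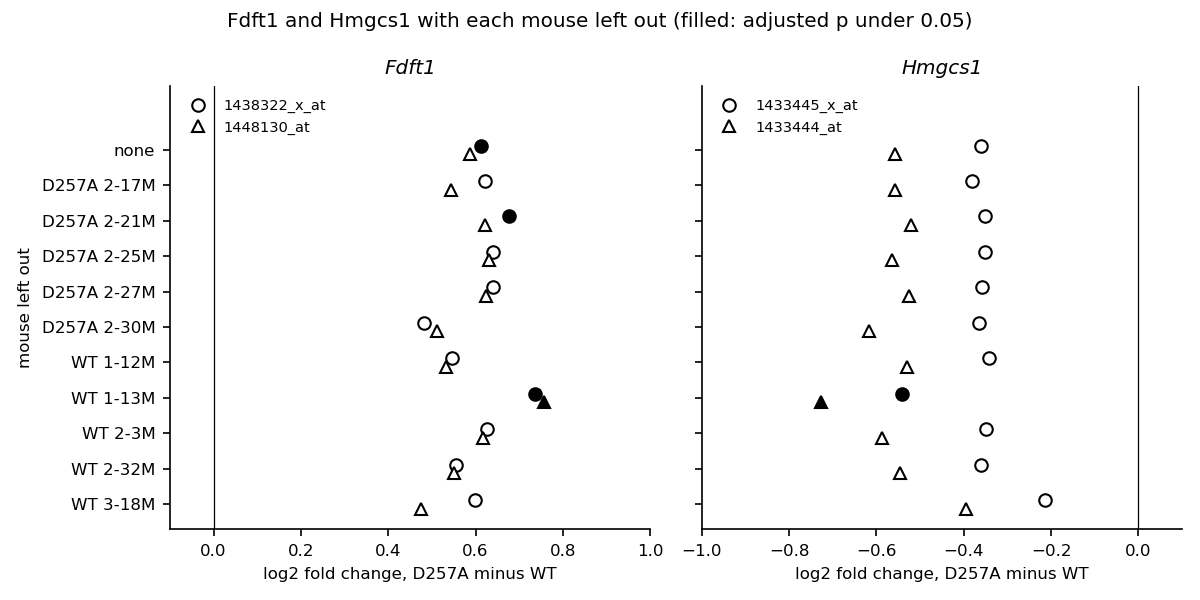
Log2 fold change (D257A minus WT) of Fdft1 and Hmgcs1 at 2 probe sets each, with all mice and with each mouse left out in turn; filled symbols passed an adjusted p of 0.05. Fdft1 stays above 0 and Hmgcs1 below 0 in every case, and Hmgcs1 passes at both probe sets only when WT mouse 1-13M is left out.

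Mouse numbers start with 2 in all 5 D257A mice, but with 1 in 2 WT mice, with 2 in 2 and with 3 in 1, and what this digit stands for is not stated. Within the mice numbered 2, Fdft1 was higher by 0.70 (adjusted p = 0.037) at its brightest probe set and by 0.59 (adjusted p = 0.0348) at the other, on the log2 scale. Hmgcs1 gave -0.39 (adjusted p = 0.052), -0.52 (adjusted p = 0.0421), -0.44 (adjusted p = 0.0481) and -0.11 (adjusted p = 0.693) at its 4, from the brightest to the dimmest. With the digit as a block over all 10 mice, only the mice numbered 2 compare the genotypes, so the estimates are necessarily the same. The adjusted p of that limma fit were 0.119 and 0.166 for Fdft1 and 0.18 to 0.753 for Hmgcs1.

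Srebf2, the regulator, did not pass. Its brighter probe set, 1452174_at, read 125, 140.1, 166, 158 and 138 in the D257A mice, against 138, 190.3, 193, 180.2 and 166 in the WT mice, in the order given above. Of the WT mice, 1-12M lay among the D257A mice and 3-18M at their upper end. The log2 fold change was -0.25 (standard error 0.17, 95% interval -0.62 to 0.12, adjusted p = 0.404). The other probe set, 1426744_at, was too dim to be tested and spanned 8.5 to 88.0 in D257A mice and 73.2 to 132.7 in WT mice.

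Of the enzymes between HMG-CoA and farnesyl pyrophosphate, neither Mvd nor Fdps passed. Fdps, the synthase whose product Fdft1 uses, read 641, 652, 584, 616 and 499 in the D257A mice, against 755, 438, 796, 800.0 and 645 in the WT mice. As for Hmgcs1, WT mouse 1-13M was the lowest of the 10, and 3 WT mice were above every D257A mouse. The log2 fold change was -0.17 (standard error 0.17, 95% interval -0.54 to 0.19, adjusted p = 0.585), and without mouse 1-13M it was -0.32 (adjusted p = 0.102). Its second probe set, 1438150_at, stayed at or below 5.3 in all mice and was not tested. Mvd, the decarboxylase that ends the mevalonate steps, read 77.4 to 235 in D257A mice and 100.4 to 262 in WT mice at 1448663_s_at (log2 fold change -0.10, 95% interval -0.80 to 0.61, adjusted p = 0.891). At 1417303_at it read 109 to 167 in D257A mice and 106 to 207 in WT mice (-0.04, adjusted p = 0.939). At 1448663_s_at the direction flips to 0.04 with each array centred on its median and to 0.01 after quantile normalization. Without WT mouse 1-13M it was 0.10 (adjusted p = 0.86). The same 3 settings gave 0.09, 0.05 and -0.02 at 1417303_at.

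The sterol steps after squalene did not pass either. Sqle, the monooxygenase that makes squalene epoxide, read 98.7, 64.6, 112, 84.2 and 92.2 in the D257A mice, against 131, 104, 239.6, 78.3 and 107 in the WT mice. WT mouse 2-3M alone was far above the D257A mice, and WT mouse 2-32M lay below 4 of them. The log2 fold change was -0.46 (standard error 0.29, 95% interval -1.08 to 0.17, adjusted p = 0.367), and without WT mouse 2-3M it was -0.22 (adjusted p = 0.696). Cyp51, the lanosterol demethylase, spanned 53.1 to 150.7 in D257A mice and 88.6 to 146 in WT mice at 1450646_at (-0.39, 95% interval -1.04 to 0.27, adjusted p = 0.478). It was -0.59 without D257A mouse 2-17M, -0.22 without D257A mouse 2-21M and -0.26 without D257A mouse 2-25M. Its other probe sets were too dim to be tested. At 1422533_at the genotypes did not overlap, with 37.9 to 71.1 in D257A mice and 71.8 to 126 in WT mice, but the adjusted p without a filter was 0.206. At 1422534_at the signals were 3.2 to 7.3 in D257A mice and 3.1 to 35.1 in WT mice. Without WT mouse 1-13M, Sqle (-0.52, adjusted p = 0.286), Cyp51 (-0.47, adjusted p = 0.352) and Srebf2 (-0.22, adjusted p = 0.475) still did not pass.

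The other genes of sterol and lipid synthesis were taken from 5 lists of 73 genes, of which 58 were tested by their brightest probe set. Of the 58, 5 rose and 1 fell, which is 10.3% beside 7.23% of all genes tested, and their median log2 fold change was 0.03. Without overlap between the genotypes, 5 of the 58 lay higher and 1 lower, where 3.93% and 3.47% of all genes did. In the list of other cholesterol synthesis enzymes, 1 of 14 rose, 1 fell and 12 did not pass, with a median of 0.00. The gene that rose was Aacs, a cytosolic synthetase that activates acetoacetate for lipid synthesis. It read 880, 773, 460.3, 539 and 750.3 in the D257A mice, against 76.0, 129.9, 106, 80.2 and 71.6 in the WT mice, so that the lowest D257A mouse was above every WT mouse. This was 2.87 on the log2 scale (standard error 0.22, adjusted p = 1.56e-05, a 7.33-fold difference), and a second probe set gave 3.23 (adjusted p = 4.71e-06), while another, too dim to be tested, read 34.3 ± 20.7 in D257A mice and 49.9 ± 31.6 in WT mice (n = 5 each, SD). The gene that fell was Acss2, which makes acetyl-CoA from acetate in the cytosol, at 1090 ± 134 in D257A mice and 1626 ± 275 in WT mice (n = 5 each, SD). Its log2 fold change was -0.57 (standard error 0.14, adjusted p = 0.0229), and the call held under 12 of 21 alternatives. It was lost without any 1 of D257A mice 2-25M (adjusted p = 0.0634), 2-27M (0.0551) and 2-30M (0.0523) or WT mice 1-12M (0.0642) and 2-32M (0.0507). A second Acss2 probe set was also called lower (-0.51, adjusted p = 0.0114), and a dimmer one did not pass (-0.48, adjusted p = 0.326).
The other 12 genes of this list did not pass. Counting Aacs and Acss2, 3 of the 14 were higher and 2 lower at an unadjusted limma p under 0.05. Lss, Tm7sf2 and Lbr are among these and are given for that reason. Every other gene that did not pass lay between -0.28 (Pmvk) and 0.20 (Acly). Idi1, which isomerises isopentenyl pyrophosphate, had a log2 fold change of 0.16 (95% interval -0.37 to 0.68, adjusted p = 0.751). Lss, which folds squalene epoxide into lanosterol one step after Sqle, had 0.71 (95% interval 0.17 to 1.25, adjusted p = 0.105). Tm7sf2, a sterol reductase downstream of Cyp51, had -0.76 (95% interval -1.31 to -0.20, adjusted p = 0.0939). Lbr, which also has sterol reductase activity, had 0.32 (95% interval 0.08 to 0.56, adjusted p = 0.0961).

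**Figure D4:**
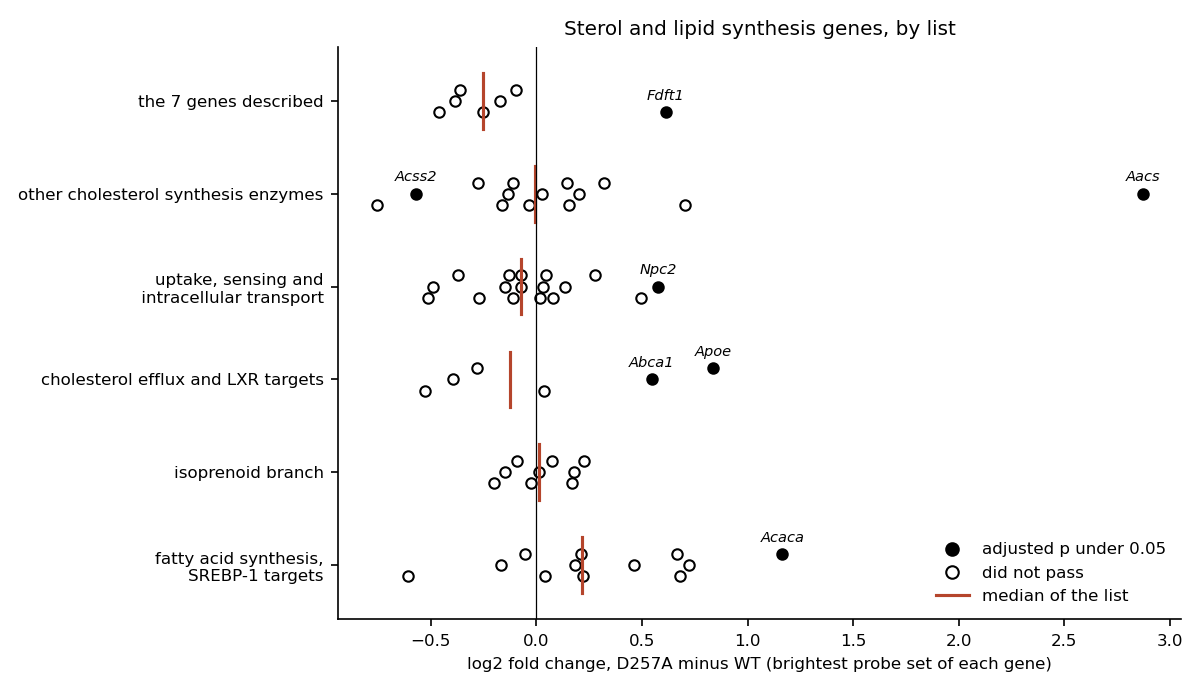
Log2 fold change (D257A minus WT) of each tested gene by its brightest probe set, for the 7 genes described and 5 lists of related genes; filled circles passed an adjusted p of 0.05 and red bars are list medians. Aacs, at 2.87, lies farthest from 0, and the list medians lie between -0.25 and 0.22.

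In the list of uptake, sterol sensing and intracellular transport, 1 of 17 rose and 0 fell (1 and 1 at an unadjusted limma p under 0.05), with a median of -0.07. The gene that rose was Npc2, which carries cholesterol out of lysosomes (0.58, adjusted p = 0.00847), at 3138 ± 370 in D257A mice and 2101 ± 192 in WT mice (n = 5 each, SD). Insig1, which holds SREBP precursors in the endoplasmic reticulum and is itself an SREBP target, read 300.2, 297, 335, 305 and 484 in the D257A mice, against 352, 531, 296, 320.1 and 363 in the WT mice. Mice 2-30M and 1-13M were the high ones in their groups, as they were for Fdft1, and the log2 fold change was -0.11 (95% interval -0.51 to 0.30, adjusted p = 0.775). Srebf1, the sister gene that acts mainly on fatty acid synthesis, had -0.07 (95% interval -0.45 to 0.30, adjusted p = 0.844). In the efflux list, 2 of 6 rose and 0 fell (2 and 2 at an unadjusted p under 0.05), with a median of -0.12. They were Abca1, which exports cholesterol to apolipoproteins (0.55, adjusted p = 0.0196), and Apoe, a lipoprotein component (0.84, adjusted p = 0.0146). The other 2 tested probe sets of Abca1 did not pass (0.25, adjusted p = 0.345, and 0.17, adjusted p = 0.668).
In the isoprenoid branch, which uses farnesyl pyrophosphate for coenzyme Q and protein prenylation, 0 of 9 genes passed in either direction, and 0 had an unadjusted limma p under 0.05. In the fatty acid synthesis list, 1 of 12 rose and 0 fell (2 and 1 at an unadjusted p under 0.05), with a median of 0.22. The gene was Acaca, acetyl-CoA carboxylase, at 741 ± 105 in D257A mice and 332 ± 62.2 in WT mice (n = 5 each, SD), higher by 1.17 on the log2 scale (standard error 0.15, adjusted p = 9.00e-04). Aacs and Acaca stayed called under every alternative in which they were tested. Npc2 (adjusted p = 0.0789), Abca1 (0.0758) and Apoe (0.0721) were not called when the arrays were left unscaled. Abca1 was also lost without D257A mouse 2-17M (adjusted p = 0.0547), D257A mouse 2-25M (0.0588) or WT mouse 2-3M (0.0581), and with mouse-number digit as a block Abca1 (0.0716), Apoe (0.147) and Acss2 (0.143) were not called. With the methods' t-test, Apoe (adjusted p = 0.0652) and Acss2 (0.0501) were not called. Without WT mouse 1-13M the 6 genes were again called and 3 more were, Vldlr, a lipoprotein receptor (-0.62, adjusted p = 0.0062), Npc1, the lysosomal partner of Npc2 (0.86, adjusted p = 0.0316), and Gpam, of glycerolipid synthesis (-0.85, adjusted p = 7.09e-04). These 9 are 15.5% of the 58 genes, beside 16.1% of all genes tested that were called without this mouse.

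Whole muscle holds several cell types, and fewer cells of a type cannot be told apart from less RNA per cell. Of the macrophage markers, 6 of 9 were called higher in D257A mice and 0 lower, where 3.71% of all genes were called higher and 3.52% lower (6 and 0 at an unadjusted limma p under 0.05), and their summed signal was 10189 to 15190.0 in D257A mice and 7668 to 8716 in WT mice. All 9 had positive log2 fold changes, but Cd68 (0.02, adjusted p = 0.949), Csf1r (0.20, adjusted p = 0.41) and Adgre1 (0.33, adjusted p = 0.247) did not pass. Itgam was too dim to be tested. Npc2, Abca1 and Apoe are also expressed by macrophages. Fibroblast markers had 4 of 8 called lower, with a summed signal of 21613 to 25524 in D257A mice and 21661 to 35681 in WT mice. The 4 were all collagen genes, Col1a1, Col1a2, Col3a1 and Col6a1. The fibroblast markers that are not collagens did not pass. They were Pdgfra (-0.04, adjusted p = 0.906), Dcn (-0.08, adjusted p = 0.599), Lum (-0.48, adjusted p = 0.294) and Fbln1 (-0.27, adjusted p = 0.402). Mouse 1-13M had the lowest WT sum of the fibroblast markers and also of the skeletal muscle markers, at 425397. Its signals had been multiplied by 3.88, the smallest scaling factor of all arrays, where the others had 4.31 to 5.35. The part of this scaling in its low sums was not tested. Of the adipocyte markers, 1 of 7 was called higher and 0 lower (3 and 1 at an unadjusted limma p under 0.05), 4 had positive and 3 negative log2 fold changes, and Lep was at -1.18 (adjusted p = 0.165). Their summed signal was 30306 to 45168 in D257A mice and 23355 to 31824 in WT mice. Each such sum is weighted towards its brightest probe sets, in adipocytes Fabp4 at 23458 in D257A mice and 17549 in WT mice. Of Schwann cell and myelin markers, cells that make much cholesterol for myelin, 0 of 6 passed (0 at an unadjusted p under 0.05), and the sum was 4731 to 9191 in D257A mice and 4396 to 7713 in WT mice. No marker was at 0 in any list. The part of these cell types in the values of the 7 genes, or of Npc2, Abca1 and Apoe, was not tested.

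Of the 21 pairs of the 7 genes, 11 had a positive correlation from mouse to mouse. Over these pairs, the Pearson correlation of log2 signals across the 10 mice, both genotypes together, ran from -0.76 (Fdps with Fdft1) to 0.64 (Hmgcs1 with Fdps), with a median of 0.01. These values share the genotype difference and the same arrays, and are given as a description. The mean of the 7 standardised profiles was highest in WT mouse 2-3M. Of the other 11209 genes tested, the 8 most like that mean were Ccdc157 (r = 0.96), Mchr1 (0.92), Nectin3 (0.92), Oaf (0.91), Aak1 (0.91), Mtss2 (0.91), Plaat3 (0.90) and Arhgef25 (0.88). Without mice 2-3M and 2-21M, farthest from the median of that mean, r was 0.69 to 0.97 for these 8 genes. Their Spearman's rho over the 10 mice was 0.78 to 0.96. The 8 were picked as the highest of 11209 correlations over these same mice, so high values follow from the choice.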

How the data were processed

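Per the labels and the study's methods, total RNA of gastrocnemius from 5 D257A and 5 WT mice was hybridized to Affymetrix arrays, and the authors made 1 linear signal intensity for each probe set of an array with GCOS 1.3. For the signal algorithm, its name was not given in the sources used here. The deposited intensities had 2% trimmed means of 93.4 to 106 in D257A mice and 94.5 to 129 in WT mice, not the stated target of 500, and each array was multiplied to that target. Of 45101 probe sets, 64 controls were left out, and 22518 whose mean log2 signal exceeded the median of 6.26 entered limma 3.58.1 under R 4.3.3 (lmFit, eBayes with a trend, no covariates, Benjamini-Hochberg over all tested). The methods' independent t-test was an alternative. The fit was tested on simulated data. Of the probe sets that are not controls, 34945 have 1 gene symbol, 932 several and 9160 none in the platform annotation used. For each gene, the brightest probe set naming only that gene stood for it. Exact permutation tests were 2-sided over 252 assignments of mice, with a smallest possible p of 0.00794. The replicates are separate mice.

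The members and gene lists were chosen with earlier results of these data known. Genes were named by rule: the 7 members, called genes of the 5 lists, a few named regulators and enzymes, and the 8 genes with the most similar profile. Lss, Tm7sf2, Lbr and the 3 genes called without WT mouse 1-13M were chosen after their values were seen. Alternatives included other normalizations, filters and variance models, an offset of 32, the t-test, mice numbered 2, a block for the first digit of the mouse number, the mean of a gene's probe sets, and each mouse left out. Python 3.11.15 with pandas 2.3.3, SciPy 1.17.1 and matplotlib 3.10.9 served for tables, permutation tests and figures.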

Additional observations from a re-analysis of the deposited data

Results flagged for a closer look

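Within a group of 5 mice, 3 values lay far from the others by Dixon's ratio, out of 42 groups of values examined; chance alone gives about 1 in 20. Fdft1 (1438322_x_at) was at 12121 in D257A mouse 2-30M, where the other D257A mice were at 7070 to 8249. Insig1 was at 484 in D257A mouse 2-30M, where the other D257A mice were at 297 to 335, and at 531 in WT mouse 1-13M, where the other WT mice were at 296 to 363.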

How the results depend on the processing

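The count of called probe sets of the 7 genes, 1 of 12, was 5 with array weights, 4 among mice numbered 2, 2 with each array centred on its median, and 0 after quantile normalization, without the variance trend, with the first digit of mouse numbers as a block and with the methods' t-test. It was 0 to 5 with 1 mouse left out, the 5 without WT mouse 1-13M. At an unadjusted p under 0.05 the t-test, like limma, had 2 higher and 1 lower. With no filter 1 probe set was called, the dim Fdft1 1438918_at, lower and not higher, and without scaling 1 was called, Hmgcs1 1433444_at, lower. The count of the 7 genes with an exact permutation p under 0.05 was 1, and 2 without scaling. The share of all genes under that test was not computed, so this count cannot be set against it. Of the other pathway genes, 6 were called, 10 with array weights, 3 with the digit as a block and 5 to 9 with 1 mouse left out. Of all 22518 probe sets tested, 1662 were called, 3968 with array weights, 1753 among mice numbered 2 and 2017 with each array centred on its median. The count was 1694 after quantile normalization, 1130 without the variance trend, 562 with the block, 1033 with the t-test and 890 to 3428 with 1 mouse left out. Of those 1662, 819 were higher and 843 lower, against 1599 and 418 with arrays centred on their medians, 872 and 822 after quantile normalization, and 356 and 856 without scaling. Mvd, at -0.10 by its brightest probe set, was 0.04 with arrays centred on their medians and 0.01 after quantile normalization. It was 0.02 among mice numbered 2 and with the block, and -0.28 to 0.12 with 1 mouse left out. By their brightest probe sets, Srebf2, Hmgcs1, Fdps, Fdft1, Sqle and Cyp51 kept their direction under every alternative run. Centring on the median moved Fdps, at -0.17, to -0.04, Srebf2, at -0.25, to -0.12 and the dimmest tested Hmgcs1 probe set, 1433446_at, at -0.08, to 0.05. With 1 mouse left out, Fdps was -0.32 to -0.11, Sqle -0.62 to -0.22 and Cyp51 -0.59 to -0.22. The causes were not tested, apart from the fewer mice or genes that an alternative itself sets. No paired analysis was possible because the mouse numbers pair no D257A mouse with a WT mouse.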
